A study of Mus musculus with 4 samples.

Results

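The genes described here are 51 listed genes of DNA replication and mitosis, taken by name. Of these, 45 were among the 3624 genes of the deposited count table, 19 of 20 replication genes and 26 of 31 mitosis genes. Cdc6, Kif23, Bub1, Bub1b, Anln and Ect2 were not among the genes of the table and were not analysed here. The study sequenced single progenitor cells of mouse fetal liver at E14.5, in mid-gestation, on the 10x Genomics Chromium platform. Cells were sorted as Lin-Sca-cKit+Cd34+, a gate for cells with the receptor Kit and the surface protein Cd34 and without lineage markers or Sca1. All embryos were of the strain C57Bl/6J. The groups were wild type and Gata2-77-/-, homozygous for a deletion of the -77 enhancer of the transcription factor gene Gata2.

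The table names 2 libraries per genotype by letter, F and I for wild type and A and B for the deletion, and no letter is tied to a sample number. The labels do not say whether the libraries came from separate embryos or from pools, so p-values measure the spread between libraries only. Gata2 itself was at 26.3 and 23.2 counts per 1000000 transcripts captured over the 3624 genes (CPM) in the wild-type libraries, against 7.48 and 6.73 in the enhancer-deleted ones. Each genotype had 4980 cells. The median cell held 14292.5 unique molecular identifiers (UMIs, each marking a captured transcript) in the wild type and 7272 in the deletion. Kit lay between 39.6 and 45.2 CPM. Cd34 was at 186 and 210 CPM in F and I, against 306 and 333 in A and B. The gene of Sca1 was not among the genes of the table. The X-inactivation transcript Xist gave 16675 UMIs in I and 8171 in B, against 1 in F and 0 in A. The files used here give no barcodes, so barcodes shared between libraries were not counted.

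Replication genes encode the machinery that copies DNA in S phase. The Mcm proteins form the helicase ring, Cdc45 and the GINS complex activate it, and Pcna is the sliding clamp of the polymerases. Mitosis genes act later, when Cdk1 with cyclin B drives entry into mitosis, spindle and kinetochore proteins separate the chromosomes, and Cdc20 and Ube2c serve the anaphase-promoting complex that ends it. In many cell types E2F factors control transcription of the first group, and the DREAM and MuvB complexes, which bind an element called the cell cycle genes homology region (CHR), that of the second.

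Promoters of the genes were read because members of each group were mostly positively correlated across cells, as described further on. RefSeq promoters of build GRCm38.p6, from 250 bases before to 50 bases after the transcript start, matched 39 of the 45 genes by symbol. Aurkb, Gins2, Mcm4, Rfc2, Smc4 and Tpx2 had no match. The CHR letters TTTGAA, searched on both strands, occurred in 17 of 23 mitosis genes (73.9%) and in 3 of 16 replication genes (18.8%). The share over all 27025 symbols with a promoter was 20.2%. In 16 of the 17 mitosis genes a match began within 50 bases of the start, as it did in 5.72% of all symbols and in 1 replication gene, Cdc45. Each of the 17 also held a CCAAT box (letters CCAAT, either strand), and 8.97% of all symbols held both. The CCAAT box by itself was common to the groups. It occurred in 20 of 23 mitosis genes (87.0%), in 11 of 16 replication genes (68.8%) and in 41.1% of all symbols. E2F letters were searched as TTTGGCGC, TTTCCCGC, TTTCGCGC and TTTGCCGC on both strands, and matches on opposite strands can overlap. They occurred in 6 of 16 replication genes (37.5%), namely Mcm3, Mcm5, Mcm6, Mcm7, Uhrf1 and Hells. Of the mitosis genes 1 of 23 held them (4.35%), Cdk1, and of all symbols 2.60%. Among the 2822 genes of the count table with a promoter, 14.7% held CHR, 43.8% CCAAT and 6.02% E2F letters. These matches describe letters in a window and show no binding. For 3 of the genes several annotated starts were searched.

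The following promoters are shown because they carry the contrast between the groups. Ube2c, Cenpf and Plk1 are mitosis genes with CHR letters that were much higher in cells with most mitosis UMIs than in cells with least, as given further on. Nusap1, the mitosis gene with the largest such ratio (9.43), held none of the letters searched. Birc5, Ccnb1, Cenpe, Cks2 and Tacc3 held no CHR letters either. Mcm5 and Mcm6 are helicase subunits with E2F letters, and Ung, a replication gene, held none of the letters searched. Capitals mark CHR, CCAAT and E2F letters. Ube2c lies at chr2:164769679-164769978 (plus strand), Cenpf at chr1:189688037-189688336 (minus strand) and Plk1 at chr7:122159185-122159484 (plus strand). Mcm5 lies at chr8:75109259-75109558 (plus strand), Mcm6 at chr1:128359656-128359955 (minus strand) and Ung at chr5:114130185-114130484 (plus strand).
Ube2c: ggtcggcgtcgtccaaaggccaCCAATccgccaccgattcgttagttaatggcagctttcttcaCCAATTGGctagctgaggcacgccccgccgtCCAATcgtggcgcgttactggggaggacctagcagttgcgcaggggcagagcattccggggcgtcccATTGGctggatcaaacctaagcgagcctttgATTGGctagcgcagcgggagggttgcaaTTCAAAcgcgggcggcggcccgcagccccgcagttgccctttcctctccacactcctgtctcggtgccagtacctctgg
Cenpf: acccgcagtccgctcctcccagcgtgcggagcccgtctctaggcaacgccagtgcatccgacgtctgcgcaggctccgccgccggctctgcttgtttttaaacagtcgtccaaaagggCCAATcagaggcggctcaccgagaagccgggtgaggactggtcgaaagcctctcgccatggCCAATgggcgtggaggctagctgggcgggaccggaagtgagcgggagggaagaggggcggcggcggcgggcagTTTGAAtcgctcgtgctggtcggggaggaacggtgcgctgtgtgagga
Plk1: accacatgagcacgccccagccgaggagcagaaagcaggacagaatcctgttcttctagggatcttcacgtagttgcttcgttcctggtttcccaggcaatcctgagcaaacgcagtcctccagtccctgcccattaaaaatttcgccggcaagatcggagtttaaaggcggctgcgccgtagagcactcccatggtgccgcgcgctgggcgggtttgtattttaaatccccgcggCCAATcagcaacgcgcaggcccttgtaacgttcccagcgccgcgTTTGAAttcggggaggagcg
Mcm5: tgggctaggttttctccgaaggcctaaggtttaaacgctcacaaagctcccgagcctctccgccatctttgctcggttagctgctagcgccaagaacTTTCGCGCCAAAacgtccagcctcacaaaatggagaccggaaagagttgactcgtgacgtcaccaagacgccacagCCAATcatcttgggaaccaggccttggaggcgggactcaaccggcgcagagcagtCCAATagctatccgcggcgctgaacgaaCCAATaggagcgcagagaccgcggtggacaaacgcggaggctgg
Mcm6: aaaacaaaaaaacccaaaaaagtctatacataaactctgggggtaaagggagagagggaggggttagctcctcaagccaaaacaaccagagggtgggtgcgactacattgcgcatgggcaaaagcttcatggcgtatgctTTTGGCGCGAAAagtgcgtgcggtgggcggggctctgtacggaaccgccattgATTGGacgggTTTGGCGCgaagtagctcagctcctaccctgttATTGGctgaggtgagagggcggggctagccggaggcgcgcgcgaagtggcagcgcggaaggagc
Ung: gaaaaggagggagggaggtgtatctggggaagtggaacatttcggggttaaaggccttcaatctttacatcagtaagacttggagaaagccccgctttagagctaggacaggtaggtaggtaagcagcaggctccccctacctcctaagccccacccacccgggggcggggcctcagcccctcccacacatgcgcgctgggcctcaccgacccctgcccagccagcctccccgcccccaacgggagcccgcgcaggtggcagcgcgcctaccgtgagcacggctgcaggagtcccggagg
In Ube2c the CHR letters stand on the opposite strand and begin 29 bases before the start. In Cenpf they begin 2 bases and in Plk1 30 bases after it. In Mcm6 E2F letters began 110 and 47 bases before the start, and in Mcm5 they began 153 bases before it.

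Across single cells the summed groups of genes opposed each other: cells with many mitosis UMIs had fewer replication UMIs in every library. To compare cells at 1 depth, 4346 UMIs were drawn at random from each cell. Cells with fewer, 140 of the wild type and 855 of the deletion, were dropped. A thinned cell then held a median of 11 replication UMIs in library F, 12 in I, 12 in A and 13 in B. Its median of mitosis UMIs was 23 in F, 25 in I, 24 in A and 24 in B, and single cells ran from 0 to 104. Pearson's r between the sums was -0.38 in F (2931 cells), -0.35 in I (1909 cells), -0.35 in A (1837 cells) and -0.38 in B (2288 cells). Without thinning, on log-normalised sums, r was -0.36, -0.32, -0.25 and -0.26. Within HSPC-like cells alone, a state defined below, r of thinned cells lay between -0.49 and -0.43 in the 4 libraries, and within monocyte-like cells between -0.44 and -0.34. These values describe cells that share a library and a fixed number of UMIs, so a higher count of 1 gene leaves less room for others, and they carry no p-value.

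Splitting the cells of a library into quartiles by their mitosis sum showed the same opposition. In library F the mean of replication UMIs per thinned cell was 13.2 in the lowest and 8.49 in the highest quartile. The values were 14.4 and 9.18 in I, 13.1 and 9.29 in A, and 14.9 and 10.2 in B, so the mean was lower in the highest quartile of each library. The fall lay in the upper part: the second quartile was at 13.3 in F, 13.8 in I, 13.2 in A and 14.6 in B, and the third at 11.3, 11.6, 11.2 and 12.6. Cells of the highest quartile also held more UMIs before thinning, a median of 14328 against 11605 in F, 19369 against 15153.5 in I, 9075 against 7721.5 in A and 8479 against 7316.5 in B. The part of total RNA in these contrasts was not tested.

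Single genes followed their group with few exceptions. All 26 mitosis genes were higher in the top quartile of the mitosis sum, each taken without its own counts, in all 4 libraries, and the ratio of top to bottom quartile had a median of 2.83. Ratios were largest for Nusap1, a microtubule-binding protein of the spindle (9.43, range over libraries 6.71 to 14.9), and Ube2c, the ubiquitin-conjugating enzyme of the anaphase-promoting complex (9.07, range over libraries 7.02 to 12.3). Next came Hmmr, a spindle-assembly factor (9.06, range over libraries 6.23 to 17.2), the mitotic kinase Plk1 (8.70, range over libraries 7.15 to 13.8) and Cenpf of the kinetochore (8.27, range over libraries 5.65 to 11.3). They were smallest for the Cdk-binding subunit Cks1b (1.43), the chromatin protein Hmgb2 (1.49) and cyclin B2 (Ccnb2, 1.52). Of the 19 replication genes 17 were lower in the top quartile in all 4 libraries, with a median ratio of 0.652 over the 19. Tyms, thymidylate synthase, was at 0.991, range over libraries 0.947 to 1.08. Rrm1, the large subunit of ribonucleotide reductase, was at 1.07, range over libraries 0.843 to 1.34. Both had libraries on either side of 1. These ratios were not taken for the other genes of the table, so the counts have no share over all genes beside them.

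**Figure D1:**
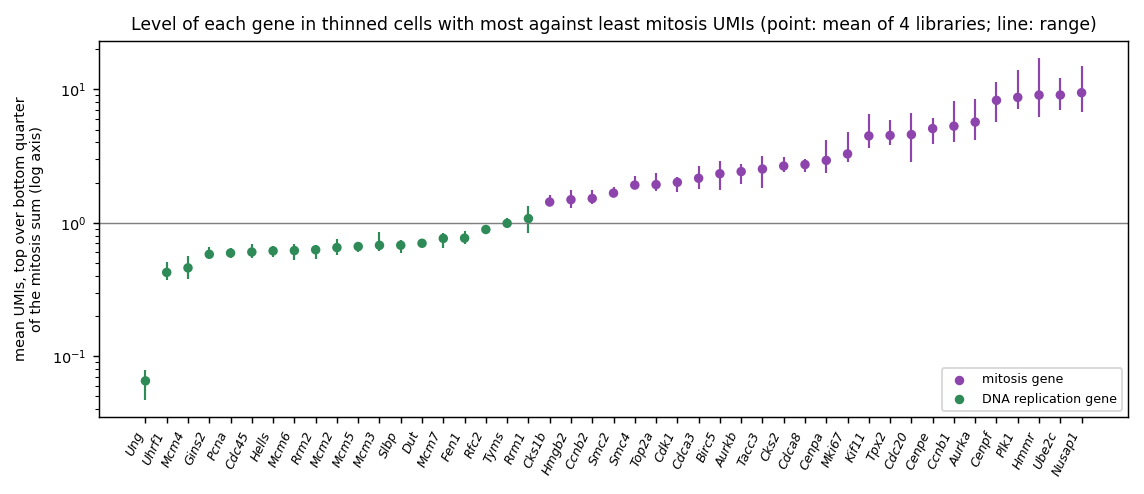
Mean UMIs of each gene in thinned cells of the top quartile divided by those of the bottom quartile of the mitosis sum, taken without the gene itself, on a log axis; points are means of the 4 libraries and lines the range over libraries. The mitosis genes lie between 1.43 and 9.43, most replication genes below 1, and Ung lowest at 0.0653.

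Ung stood apart from the other replication genes. It encodes uracil-DNA glycosylase, which removes uracil from DNA. Its mean was 0.616 UMIs per thinned cell in the bottom quartile of the mitosis sum and 0.374, 0.189 and 0.0403 in the next 3, a ratio of 0.0653, range over libraries 0.0471 to 0.0792. The next lowest ratio was that of Uhrf1, the protein that brings the maintenance methyltransferase to copied DNA, at 0.425. Ube2c rose over the same quartiles, from 0.339 over 0.719 and 1.44 to 3.08 UMIs. In library F the mean of Ube2c was 1.68 UMIs in the 2259 thinned cells without an Ung UMI and 0.396 in the 672 cells with at least 1. The means were 1.77 and 0.477 in library I, 1.63 and 0.447 in A, and 1.61 and 0.528 in B, so all libraries showed it. Median depth before thinning of the same cells was 13284 and 12376 UMIs in F and 7866 and 7837 in B. Across all cells, on log-normalised values, r between Ung and Ube2c was -0.49 in F, -0.53 in I, -0.34 in A and -0.32 in B.

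Pairs of genes were compared on log-normalised values of cells that were not thinned. Pairs of other genes were not taken, so the counts have no share over all pairs beside them. Among pairs of mitosis genes r had a median of 0.20 over 325 pairs (mean of 4 libraries) and was above 0 in 320 of them. Cenpf with Ube2c (0.54), Ube2c with Cks2 (0.50) and Nusap1 with Ube2c (0.49) were among the highest. Among the 171 pairs of replication genes the median was 0.11 and the highest value 0.24. Between the groups the median over 494 pairs was -0.05, with 116 pairs above 0 and a highest value of 0.27. Against the mitosis sum, each gene left out of it, Ube2c reached the highest r (0.61), and Ccnb2 the lowest of its group (0.18). Of the 45 genes Ube2c also had the widest spread over thinned cells, with a variance 2.94 times its mean, rank 75 of 3624 genes. The median of this ratio was 1.05 over all genes, 1.09 over the replication genes and 1.23 over the mitosis genes. The cells of each library share its depth, which was lower in A and B.

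**Figure D2:**
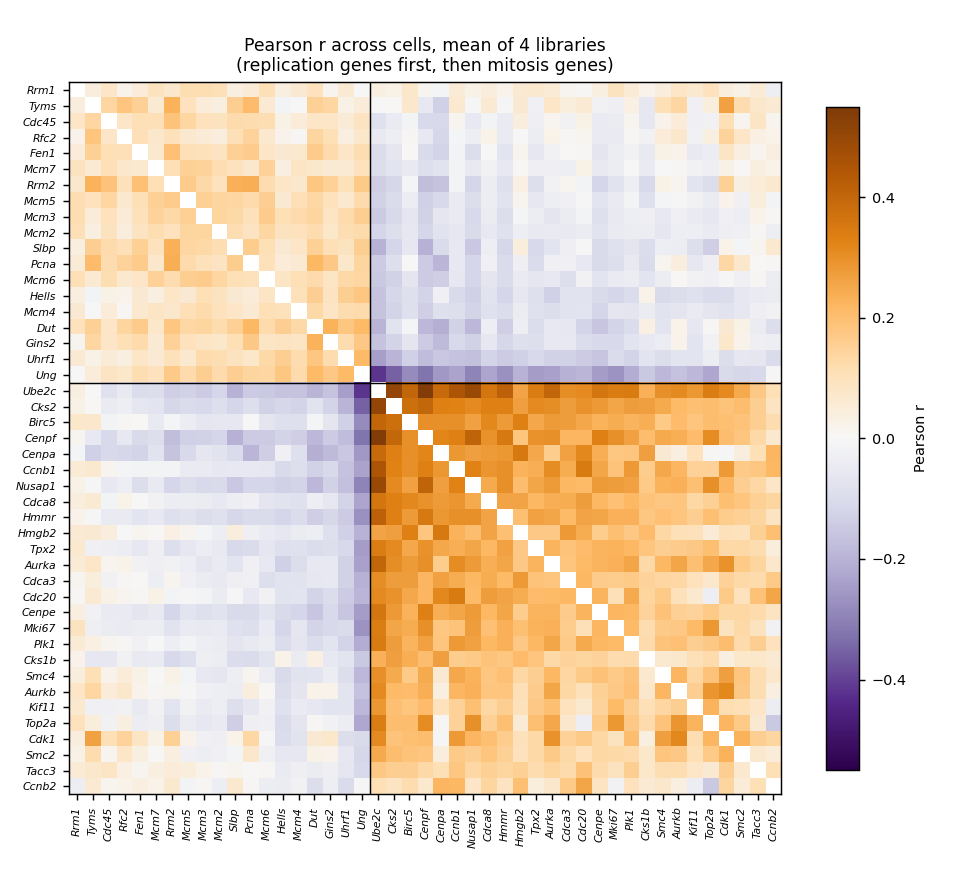
Pearson r of log-normalised values across cells for each pair of the 45 genes, averaged over the 4 libraries, with replication genes first and mitosis genes after them. Pairs of mitosis genes run up to 0.54, pairs of replication genes up to 0.24, and Ung with Ube2c is lowest at -0.42.

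Other genes of the table were ranked by r with each sum, as the mean over the 4 libraries. Closest to the replication sum were Tipin (0.34), a replication fork protection protein, the chaperone Hsp90aa1 (0.34), Ldha (0.32), Ranbp1 (0.31), Ran (0.31), Hspd1 (0.31), Eif4a1 (0.31), Rpa2 (0.30), Gmnn (0.29) and Phb2 (0.29). Rpa2 is a subunit of the single-strand DNA-binding complex, and Gmnn encodes geminin, the inhibitor of repeated origin licensing. The replication genes themselves, each left out of the sum, lay between 0.13 and 0.36. Closest to the mitosis sum were Ube2s (0.51), a partner enzyme of Ube2c, Arl6ip1 (0.42), the histone gene H2afx (0.41), Hn1 (0.36), Tubb4b (0.34), Prc1 (0.34), Fam64a (0.33), Bub3 (0.33), Ccna2 (0.32) and Tuba1c (0.32). Prc1 bundles microtubules of the central spindle, Bub3 belongs to the spindle checkpoint and Ccna2 is cyclin A2. These values describe cells within libraries of differing depth.

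Over all cells of a library, none of the 45 genes passed the main test between genotypes. UMIs were summed per library and tested with edgeR's quasi-likelihood test, and 321 of 3622 genes (8.86%) passed an adjusted p of 0.05 (2.76% higher and 6.10% lower in the deletion). At an unadjusted p under 0.05 there were 7 of the 45, all lower in the deletion (Smc4, Aurkb, Ube2c, Hmgb2, Cks2, Mki67 and Mcm5), against 24.5% of all genes. The DESeq2 Wald test, which passed 734 genes (20.3%, with 8.48% higher and 11.8% lower), called 5 of them lower (Smc4, Aurkb, Ube2c, Hmgb2 and Cks2). With the presence of Xist in a library as a term of the edgeR model, which sets F beside A and I beside B and was chosen after seeing the data, 480 genes passed (13.3%, with 4.36% higher and 8.89% lower). Smc4 was then the only one of the 45 to pass, at a log2 fold change of -0.25 (edgeR adjusted p = 0.0454). The median log2 fold change, deletion over wild type, was -0.05 for replication genes, -0.10 for mitosis genes and 0.00 for all genes. In simulated data for this comparison, on 3624 genes, 83.6% of genes changed by 1.5-fold and 19.4% of those changed by 1.25-fold were recovered.

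Several mitosis genes were slightly lower in both enhancer-deleted libraries. In CPM, for F and I against A and B, Smc4, the condensin subunit that compacts chromosomes, was at 216 and 225 against 190.0 and 194 (log2 fold change -0.25, SE 0.07, edgeR adjusted p = 0.0909). Ube2c was at 365 and 368 against 327 and 331 (log2 fold change -0.21, SE 0.07, edgeR adjusted p = 0.133). Both genes separated the genotypes with a small spread within each. Hmgb2 was at 1692 and 1724 against 1533 and 1459 (log2 fold change -0.24, SE 0.08, edgeR adjusted p = 0.147). Cks2, a subunit bound to Cdk1, was at 598 and 627 against 557 and 532 (log2 fold change -0.22, SE 0.07, edgeR adjusted p = 0.151). Aurkb, the kinase of the chromosomal passenger complex, was at 80.8 and 82.8 against 72.9 and 76.9 (log2 fold change -0.18, SE 0.05, edgeR adjusted p = 0.100). None of these differences passed after adjustment in the main test. In all, 9 of 26 mitosis genes had both enhancer-deleted libraries below both wild-type ones and 5 had them above (Cenpa, Cks1b, Cenpf, Cdca3 and Top2a), while 18.5% and 35.5% of all genes did so (54.1% in either direction). Birc5 (survivin), of the same passenger complex as Aurkb, overlapped at 348 and 349.7 against 349 and 379.8 CPM, and Cks1b was at 571 and 593 against 598 and 648.

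Replication genes showed mixed differences. Mcm5 was at 97.1 and 120.1 against 93.9 and 94.9 CPM (log2 fold change -0.25, SE 0.09, edgeR adjusted p = 0.182). Mcm6 was at 107 and 131 against 98.7 and 113 (log2 fold change -0.22, SE 0.09, edgeR adjusted p = 0.212). Cdc45 was at 33.0 and 45.9 against 29.8 and 32.7 (log2 fold change -0.38, SE 0.16, edgeR adjusted p = 0.212). In these 3 genes library I was the highest, and for Mcm6 the groups overlapped. Without library F, which left I as the lone wild-type library, assumed to vary like the others, 291 genes passed (8.04%), and Mcm5, Mcm7, Cdc45, Cdc20 and Tacc3 were among them, all lower. Without I, A or B none of the 45 passed, while 291 (8.03%), 66 (1.82%) and 112 (3.09%) genes did. Gins2, a GINS subunit, was at 119 and 117 against 126 and 141 (log2 fold change 0.13, SE 0.05, edgeR adjusted p = 0.221). Dut, the enzyme that keeps uracil out of DNA by removing dUTP, was at 694 and 691 against 753 and 847 (log2 fold change 0.15, SE 0.06, edgeR adjusted p = 0.221). Both were higher in each enhancer-deleted library. The clamp loader subunit Rfc2 was at 212 and 211 against 216 and 238, and Slbp, which binds histone mRNA, at 176 and 185 against 165 and 183. Rrm2, the small subunit of ribonucleotide reductase, was at 159 and 173 against 159 and 178 and Tyms at 139.8 and 160.2 against 150.1 and 151. Of the 19 replication genes 2 were lower and 3 higher in both enhancer-deleted libraries, and 14 overlapped. Of all genes 18.5% were lower and 35.5% higher in both, so the replication genes separated the genotypes less often.

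**Figure D3:**
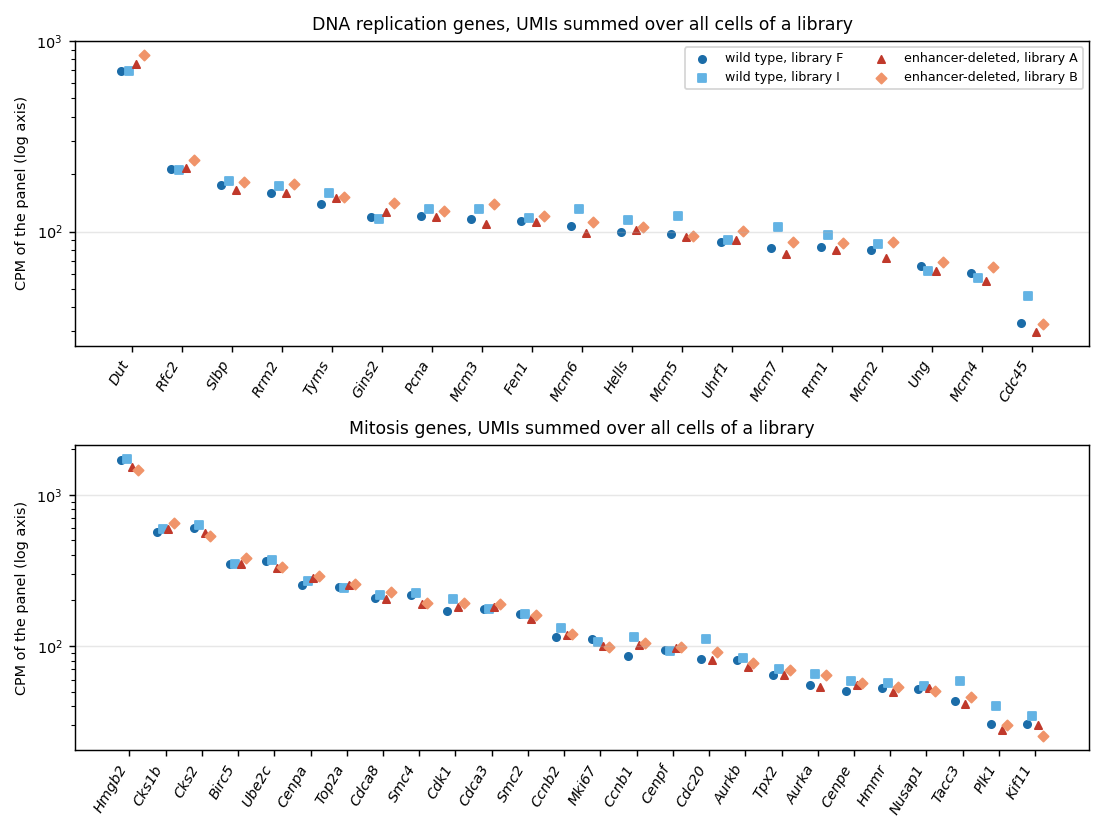
CPM of each gene in each of the 4 libraries (log axis), by group and ordered by captured UMIs with no scaling to transcript length. Differences between genotypes are small beside differences between genes, and library I lies above the other 3 for Mcm5, Mcm6, Mcm7, Cdc45, Cdc20, Tacc3 and Plk1.

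Summed over the group, the replication genes took 0.265%, 0.283%, 0.267% and 0.297% of UMIs in F, I, A and B, and the genotypes overlapped (0.274% ± 0.0126 and 0.282% ± 0.0212, SD, n = 2 each). In each genotype the library with Xist UMIs was the higher one, and the part of Xist in this was not tested. The mitosis genes took 0.595% and 0.623% in F and I, against 0.575% and 0.585% in A and B (0.609% ± 0.0198 and 0.580% ± 0.00667, SD, n = 2 each). Both enhancer-deleted libraries were lower. Thinned to equal UMIs the values were 0.574% and 0.602% against 0.568% and 0.576%, which overlap. With the mix of states held fixed they were 0.588% and 0.628% against 0.580% and 0.604%, and without Hmgb2, the mitosis gene with most UMIs, 0.426% and 0.451% against 0.422% and 0.439%, both overlapping. The mix of clusters within a state was not held fixed. Between libraries alike in Xist, A was below F and B below I in the mitosis sum in each of these 4 settings. In the replication sum over all cells A was above F and B above I, while without Dut, the replication gene with most UMIs, the values were 0.195% and 0.214% in F and I against 0.192% and 0.212% in A and B, each lower than its counterpart. The mix of cells moved with genotype: 15 of 17 neutrophil markers were in the table and summed to 17729 and 13099 CPM in F and I against 5845 and 5667 in A and B. With 2 libraries in each genotype the smallest exact permutation p is 0.333, so none is given for these sums.

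Other cell cycle genes of a set list were read in the same fit. Of the 96 that were measured, 3 were higher in the deletion by the edgeR test (2.76% of all genes) and 0 lower (6.10%), with 13 at an unadjusted p under 0.05 (24.5% of all genes) and a median log2 fold change of 0.02. Of the 3 D-type cyclins, which start the cycle from growth signals, 2 passed. Ccnd1 was at 43.6 and 44.1 against 69.0 and 85.9 CPM (log2 fold change 0.77, SE 0.09, edgeR adjusted p = 0.00980). Ccnd2 was at 131 and 128 against 189.7 and 219 (log2 fold change 0.61, SE 0.08, edgeR adjusted p = 0.0122). Ccnd3 was at 157 and 153 against 138 and 158 (log2 fold change -0.12, SE 0.07, edgeR adjusted p = 0.354), did not pass and overlapped between genotypes. Cenpm, a centromere protein, was at 83.9 and 83.2 against 103 and 111 (log2 fold change 0.31, SE 0.05, edgeR adjusted p = 0.0240). In Ccnd1, Ccnd2 and Cenpm the genotypes did not overlap. These values are sums over all cells, whose mix of states differed by genotype. No values within states were taken for these genes, so the part of the mix was not tested.

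Cell states were rebuilt from the counts, with the 45 genes and the other cell cycle genes kept out of the clustering. Clusters were named from marker lists: HSPC-like (hematopoietic stem and progenitor cells, with Mycn and Hlf among the leading genes), monocyte-like (Trem2, Ly6c2, Ccr2), neutrophil-like (Elane, Camp), basophil/mast-like (Cpa3, Hdc) and erythroid-like (globins). Clusters that no list named are given by a leading gene, or together as unnamed clusters. UMIs of a state and library were summed where it held at least 20 cells, and each state was compared with HSPC-like cells with the library as a factor, so all these comparisons share the HSPC-like sums. Genes left in the clustering can vary with the cell cycle, so the calls are given beside the share of all genes called.

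Erythroid-like cells had the highest share of both groups in F and I, with 50 and 37 cells, while A and B held 3 such cells each and were not compared. Replication genes took 0.348% and 0.327% of their UMIs in F and I, against 0.249% and 0.243% in HSPC-like cells of the same libraries. Mitosis genes took 0.760% and 0.779%, against 0.591% and 0.610%. In the edgeR fit 15 replication genes were higher and 1 lower, and 23 mitosis genes were higher and 1 lower, while 51.0% of all genes were called (24.8% higher, 26.2% lower). The median log2 fold change was 0.98 for replication genes and 0.88 for mitosis genes. When sums were scaled by their totals, the median of all genes was -0.52 and those of the groups 0.47 and 0.37, with 10 replication and 13 mitosis genes higher and 4 and 2 lower, against 10.6% of all genes higher and 54.0% lower. The median of each group lay above that of all genes under both scalings. In thinned cells the median erythroid-like cell of F held 17 replication and 31 mitosis UMIs, against 13 and 26 in monocyte-like cells. In I it held 11.5 and 27, against 13 and 27 in monocyte-like cells. There the 90th percentile of mitosis UMIs was 72.5 against 42, so the summed shares of I did not describe its median cell.

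The largest rise among replication genes was that of Rrm2, at 331 and 449.7 against 91.0 and 85.4 CPM in erythroid-like against HSPC-like cells of F and I (log2 fold change 2.46, SE 0.17, edgeR adjusted p = 9.19e-13). Mki67, a protein of the surface of mitotic chromosomes, was at 347 and 396 against 118 and 117 (log2 fold change 2.29, SE 0.16, edgeR adjusted p = 7.61e-13). Slbp was at 388 and 455 against 153 and 136 (log2 fold change 2.00, SE 0.10, edgeR adjusted p = 1.30e-15). In these 3 genes both erythroid-like sums lay above those of every other state. Ube2c was at 668 and 1316 against 403 and 372 (log2 fold change 1.87, SE 0.20), with a wide gap between the libraries. Nusap1 was at 149.5 and 164 against 71.3 and 77.2 (log2 fold change 1.78, SE 0.21), and Hmmr at 123 and 110.5 against 51.2 and 62.4 (log2 fold change 1.65, SE 0.22). Cyclin B1 (Ccnb1) was at 176 and 179.9 against 76.2 and 94.2 (log2 fold change 1.55, SE 0.17). All 4 are mitosis genes and rose in both libraries. Mcm2 was at 151 and 149 against 73.5 and 74.2 (log2 fold change 1.53, SE 0.14), Rrm1 at 149.5 and 144 against 77.5 and 85.7 (log2 fold change 1.44, SE 0.16) and Mcm5 at 157 and 123 against 73.3 and 81.4 (log2 fold change 1.36, SE 0.18). These 10 genes passed under each of the 8 alternatives run. The genes that were lower, Rfc2 (134 and 89.9 against 222 and 204) and Cks1b (397 and 339 against 647 and 671), did not pass in all of them.

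**Figure D4:**
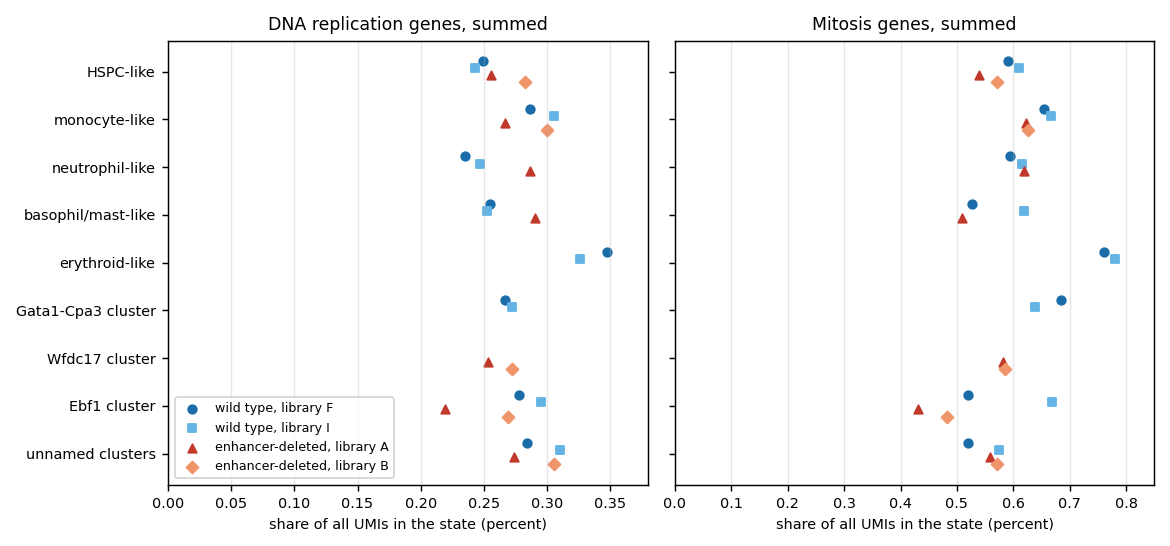
Share of all UMIs of a state taken by the replication genes and by the mitosis genes, 1 point per library with at least 20 cells in that state. Erythroid-like cells of F and I lie highest in both panels, at 0.348% and 0.327% and at 0.760% and 0.779%.

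Monocyte-like cells differed from HSPC-like cells gene by gene. Of the replication genes 10 were higher and 3 lower, and of the mitosis genes 10 were higher and 3 lower, while 64.0% of all genes were called (31.2% higher, 32.7% lower). The medians were 0.24 and 0.12. In CPM, for monocyte-like against HSPC-like cells in F, I, A and B, Cdc45 was at 41.9, 62.9, 38.8 and 42.9 against 18.4, 23.7, 19.6 and 23.4 (log2 fold change 1.10, SE 0.13, edgeR adjusted p = 5.48e-08). Rrm2 was at 188, 219, 179 and 203 against 91.0, 85.4, 123 and 134 (log2 fold change 0.86, SE 0.10), and Mcm5 at 104, 138, 106 and 119 against 73.3, 81.4, 83.1 and 67.0 (log2 fold change 0.59, SE 0.09). These 3 genes were higher in each library. Uhrf1 went the other way, at 80.0, 82.4, 79.7 and 89.3 against 110.2, 112, 115 and 114 (log2 fold change -0.48, SE 0.08), as did Ung, at 52.0, 49.9, 45.5 and 56.9 against 84.6, 65.9, 76.8 and 79.0 (log2 fold change -0.62, SE 0.09). The replication genes did not move in 1 direction.

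The mitosis genes split likewise in the same comparison. Hmgb2 was at 1928, 1979.8, 1855 and 1749.7 against 1386, 1452, 1241 and 1292 CPM (log2 fold change 0.46, SE 0.06). The spindle protein Tacc3 was at 51.9, 70.5, 46.3 and 53.4 against 30.5, 46.0, 32.8 and 41.0 (log2 fold change 0.53, SE 0.09), and Plk1 at 42.0, 47.6, 31.1 and 36.7 against 25.8, 35.5, 22.6 and 25.0 (log2 fold change 0.51, SE 0.13). Cenpf was lower, at 90.9, 82.0, 88.6 and 86.3 against 134, 145, 112 and 121 (log2 fold change -0.59, SE 0.13). So was Top2a, the topoisomerase that untangles sister chromatids, at 252, 221, 269 and 262 against 334, 353, 291 and 293 (log2 fold change -0.37, SE 0.08). Cenpf and Top2a passed in 7 of 8 alternatives each, and the other 8 genes named for these cells in all 8. Monocyte-like cells were also deeper, with medians of 17011 and 22793.5 UMIs in F and I against 10943 and 13088, and of 7952.5 and 7578 in A and B against 7510 and 6629. The part of depth was not tested.

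Neutrophil-like cells were compared in F, I and A, with 858, 353 and 34 cells, since B held 19. The sum of A held 269673 UMIs, against 10626567 in F and 5695216 in I, so its values are less certain. Of the replication genes 9 were higher and 4 lower, of the mitosis genes 8 were higher and 4 lower, and 62.4% of all genes were called (31.8% higher, 30.5% lower). Against the HSPC-like values, Cdc45 was at 40.6, 47.6 and 70.5 against 18.4, 23.7 and 19.6 CPM in F, I and A (log2 fold change 1.18, SE 0.16). Rrm2 was at 180.5, 184 and 229.9 (log2 fold change 1.04, SE 0.12) and Mcm5 at 104, 123 and 129.8 (log2 fold change 0.69, SE 0.10). Uhrf1 was at 63.5, 74.1 and 70.5 (log2 fold change -0.57, SE 0.10), Ung at 55.9, 53.6 and 22.2 (log2 fold change -0.39, SE 0.11) and Hells, a chromatin remodeller, at 77.0, 84.3 and 92.7 against 116, 119 and 104 (log2 fold change -0.41, SE 0.09). The first 3 genes were higher and the other 3 lower than in HSPC-like cells. Hmgb2 was at 1951, 2056 and 2088 (log2 fold change 0.71, SE 0.06), Cenpf at 75.0, 61.3 and 44.5 (log2 fold change -0.76, SE 0.16) and Top2a at 189, 183 and 145 (log2 fold change -0.65, SE 0.10). These 9 genes passed in all 8 alternatives, while the count called fell from 25 to 14 of the 45 without library F, where 47.2% of all genes were called. The group medians did not hold their sign: they were 0.16 and 0.09 as fitted and -0.01 and -0.07 when scaled by totals, where the median of all genes was -0.17 and 4 replication and 5 mitosis genes were higher and 5 and 8 lower, against 21.6% and 44.7% of all genes.

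Basophil/mast-like cells were compared in F, I and A, with 207, 148 and 21 cells. There 4 replication genes were higher and 3 lower, and 8 mitosis genes were lower and none higher. Of all genes 40.0% were called (20.1% higher, 19.9% lower). Uhrf1 was at 75.3, 61.6 and 80.5 against 110.2, 112 and 115 CPM (log2 fold change -0.74, SE 0.11) and passed in all 8 alternatives. Rrm2, at 148, 152 and 228 against 91.0, 85.4 and 123 (log2 fold change 0.61, SE 0.13), passed in 7. The calls of Cenpf, Top2a, Nusap1 and Mki67, with log2 fold changes of -0.51, -0.51, -0.50 and -0.41, were each lost in at least 1 alternative, and without library F 5 of the 45 were called in place of 15, against 23.1% of all genes. The direction of the mitosis genes depended on the clustering. With clustering on all genes 3 were higher and 4 lower (with 17.6% of all genes higher and 16.5% lower). At Leiden resolution 0.6 there was 1 higher and 3 lower (16.1% of all genes higher and 14.4% lower), and on marker genes only 1 higher and 0 lower (9.13% of all genes higher and 6.76% lower). In the cluster with Gata1 and Cpa3 among its leading genes, with 23.7% of genes called (11.7% higher, 11.9% lower), 2 replication genes were higher and 3 lower, and 5 mitosis genes were higher. This cluster held 322 and 169 cells in F and I but 7 and 1 in A and B, so only wild-type libraries were compared. In the Ebf1 cluster (27.5%) 4 replication genes were higher, and 4 mitosis genes were higher and 2 lower. In the Wfdc17 cluster (31.4%, with 17.5% higher and 13.8% lower), which held 157 and 170 cells in A and B and 13 and 4 in F and I, 5 replication and 4 mitosis genes were higher. In the unnamed clusters (47.8%, with 22.2% higher and 25.6% lower) 7 replication genes were higher and 1 lower, and 1 mitosis gene was higher and 10 lower.

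**Figure D5:**
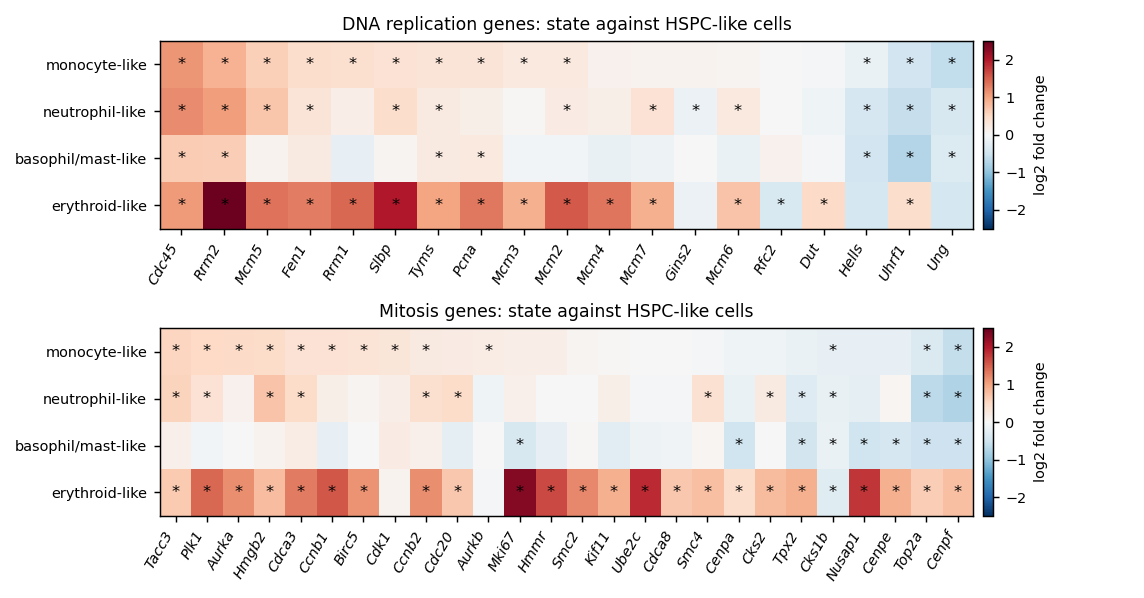
Log2 fold change of each gene in 4 states against HSPC-like cells, in colour, with a star where the edgeR adjusted p was under 0.05; genes are ordered by their value in monocyte-like cells. Rrm2 and Cdc45 are higher in each row, Ung and Uhrf1 are called lower in the upper 3 rows, and in the erythroid-like row 38 of the 45 genes are called higher.

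Within a state the genotypes were compared where every library held at least 50 cells, which left HSPC-like and monocyte-like cells among the named states. Monocyte-like cells pooled several clusters, and their mix differed by genotype. The cluster with Ly6c2 among its leading genes held 266 of 515 such cells in F and 263 of 412 in I. It held 124 of 622 in A and 131 of 611 in B. Among the unnamed clusters, that with fewest UMIs per cell held 116 and 29 cells in F and I. It held 357 and 346 in A and B. The part of this mix in the calls below was not tested. In HSPC-like cells 88 of 3553 genes (2.48%, with 0.732% higher and 1.75% lower) passed and 3 of the 45 were among them. Rrm2 was at 91.0 and 85.4 CPM in the wild-type and at 123 and 134 in the enhancer-deleted libraries (log2 fold change 0.46, SE 0.07, edgeR adjusted p = 0.0279). Nusap1 was at 71.3 and 77.2 against 50.3 and 57.3 (log2 fold change -0.54, SE 0.10, edgeR adjusted p = 0.0322), and Mki67 at 118 and 117 against 84.0 and 101 (log2 fold change -0.42, SE 0.08, edgeR adjusted p = 0.0441). With any of 3 other clusterings none of the 45 passed, and likewise without F, I or B, while without A only Rrm2 passed. With Xist as a term 262 genes passed (7.37%) and 6 of the 45, with Rrm2 higher and Nusap1, Mki67, Cenpf, Top2a and Rrm1 lower. In monocyte-like cells 35 genes (0.979%, with 0.308% higher and 0.671% lower) passed the edgeR test and 0 of the 45, with 8 of the 45 at an unadjusted p under 0.05 (17.6% of all genes) and 0 passing under each of the 9 alternatives, among them Xist as a term, where 5.26% of genes passed. In the unnamed clusters 5 genes passed (0.139%, with 0.0558% higher and 0.0837% lower) and 0 of the 45, with 6 at an unadjusted p under 0.05 (8.81% of all genes). The medians within HSPC-like cells were -0.04 for replication and -0.22 for mitosis genes, and within monocyte-like cells -0.05 and -0.09, with -0.01 for all genes in both. The term for a genotype difference that differs between monocyte-like and HSPC-like cells was called by edgeR for 768 of 3592 genes (21.4%, with 12.5% higher and 8.91% lower in monocyte-like cells). Of the 45, 6 mitosis genes were called higher (Cenpa, Top2a, Nusap1, Mki67, Cenpf and Cenpe) and 2 replication genes lower (Rrm2 and Dut), and without library A none was. These 8 genes kept their call and direction with Xist as a term, where 7 mitosis genes were higher and 1 replication gene higher and 3 lower (with 14.2% of all genes higher and 10.7% lower). In other settings the directions differed. With clustering on all genes 3 replication genes were higher and none lower, and 1 mitosis gene was higher and 3 lower (10.0% of all genes higher and 6.45% lower). At resolution 0.6 there were 1 and 1 replication genes and 4 and 2 mitosis genes, higher and lower (12.4% of all genes higher and 8.73% lower). On marker genes only there were 2 and 1, and 2 and 0 (8.37% of all genes higher and 5.20% lower), and when scaled by totals 0 and 3, and 4 and 3 (7.60% of all genes higher and 21.2% lower).

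Neutrophil-like cells held at least 50 cells in every library only with clustering on marker genes, of the clusterings run. That state pooled clusters whose mix differed by genotype. The cluster led by Ngp and Camp held 143 and 41 cells in F and I, against 2 and 0 in A and B. The part of this mix in the calls was not tested. In this state 2 of the 45, Ube2c and Cenpe, were lower in the deletion and none higher by the edgeR test (with 3.74% of all genes higher and 6.18% lower). The genotype difference differed from that in HSPC-like cells for 7 of the 45, with Mcm3 and Mcm6 higher and Ube2c, Smc4, Cenpe, Cdc20 and Hmgb2 lower (7.29% of all genes higher and 10.2% lower). It differed from that in monocyte-like cells for 10 of the 45, with 2 replication genes higher and 8 mitosis genes lower (12.4% of all genes higher and 14.9% lower).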

How the data were processed

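Single-cell libraries of sorted fetal liver progenitors were used. The deposited values are raw UMI counts per cell and gene. Per the submitters' processing notes, Cell Ranger 2.0.2, Seurat 2.3.4 and build mm10 were used; how the 3624 genes and 4980 cells per genotype were chosen is not given in the sources used here. The genes and lists were chosen with earlier results of these data known. UMIs were summed per library, or per library and state, and tested with edgeR 4.0.16 (filterByExpr, TMM, glmQLFTest, Benjamini-Hochberg adjustment) in R 4.3.3, with DESeq2 1.42.0 as an alternative. States came from Leiden clustering (leidenalg 0.10.2, python-igraph 0.11.9, resolution 1.0) of 1000 variable genes, 30 principal components and 15 neighbours (scikit-learn 1.9.0), with 141 cell cycle genes kept out, and not from an annotation by the authors. Clusters needed 3 markers to be named. No doublet caller was run; an alternative left out the 5% of cells with most UMIs. Clustering on marker genes only and a model term for Xist were added after seeing the data. Named genes were, per group, those past the threshold between genotypes or the 5 with the smallest p, the 5 with the highest mean CPM and the 5 with the largest change between states; Uhrf1, Ung, Hells, Cenpf, Top2a, Tacc3 and Plk1 were added after their values were seen. Tests were checked on simulated counts: in HSPC-like cells (3553 genes) 65.7% of 1.5-fold changes were recovered, with the spread between libraries taken from the fit over all cells. Other tools were Python 3.11.15, NumPy 2.4.6, pandas 2.3.3, SciPy 1.17.1 and matplotlib 3.10.9.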

Additional observations from a re-analysis of the deposited data

Results flagged for a closer look

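For 8 of the 45 genes the genotype difference in monocyte-like cells differed from that in HSPC-like cells, by edgeR's test of the state by genotype term with the library as a factor (adjusted p under 0.05; 768 of 3592 genes, 21.4%, passed). The 45 genes were not called more often than all genes. Monocyte-like cells pooled clusters whose mix differed by genotype, as given above, and the part of this was not tested. In simulated counts, on 3598 genes, the test of this term recovered 19.4% of 1.5-fold and 1.49% of 1.25-fold changes. Those counts were drawn independently for each sum, with no variation shared by the sums of a library. The recovery in the data can therefore differ and was not measured. The value given below is the log2 difference between deletion and wild type in monocyte-like cells minus that in HSPC-like cells. It was 0.74 for Nusap1 (edgeR adjusted p = 6.66e-05), 0.54 for Mki67 (0.000238), 0.52 for Top2a (1.66e-05) and 0.51 for Cenpa (1.23e-05). It was 0.41 for Cenpe (0.0415), 0.40 for Cenpf (0.00923), -0.23 for Dut (0.0333) and -0.51 for Rrm2 (0.000313). Of 9 alternatives, the call was made again in 7 for Cenpa, Top2a and Rrm2, in 6 for Nusap1 and Mki67, and in 4, 3 and 2 for Dut, Cenpf and Cenpe. Without library A none of the 45 genes passed and 52 genes did. Over the 4 fits without 1 library the value ran from 0.59 to 0.91 for Nusap1, 0.46 to 0.62 for Mki67, 0.36 to 0.70 for Top2a, 0.47 to 0.54 for Cenpa, 0.14 to 0.65 for Cenpe, 0.24 to 0.56 for Cenpf, -0.26 to -0.20 for Dut and -0.63 to -0.38 for Rrm2, so each kept its sign in these 4 fits.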

How the results depend on the processing

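No paired analysis was possible because the libraries carry letters that are not tied to sample numbers. A term for the presence of Xist, chosen after seeing the data, gave 480 genes and 1 of the 45 over all cells, 262 and 6 within HSPC-like cells, 188 and 0 within monocyte-like cells, and 896 and 11 for the state by genotype term. Between genotypes over all cells, the DESeq2 Wald test called 734 genes and 5 of the 45. Within HSPC-like cells 46 genes were called with clustering on all genes, 22 at Leiden resolution 0.6, 4 with clustering on marker genes only (0 of the 45 in each of the 3) and 244 when scaled by totals. Within monocyte-like cells the same settings gave 72, 149, 6 and 83 genes. For the state by genotype term, marker genes only gave 488 genes and 5 of the 45. For basophil/mast-like cells, marker genes only gave 576 genes and 5 of the 45, and resolution 0.6 gave 9 of the 45. The genotype difference of the mitosis sum was -0.0608 percentage points without ribosomal protein, mitochondrial and hemoglobin genes in the denominator and -0.00837 without Hmgb2. The log2 fold change turned to 0.10 for Mki67 and 0.0337 for Cks1b in basophil/mast-like cells with marker genes only, to -0.0646 for Uhrf1 in erythroid-like cells when scaled by totals, and to -0.0757 for the state by genotype term of Cenpe with clustering on all genes; the cause was not tested. Leaving out each library in turn gave 66 to 291 genes and 0 to 5 of the 45 over all cells, 6 to 172 genes and 0 to 1 of the 45 in HSPC-like cells, 1 to 26 genes and 0 to 0 of the 45 in monocyte-like cells, and 52 to 1059 genes and 0 to 12 of the 45 for the state by genotype term. Against HSPC-like cells it gave 836 to 1415 genes and 5 to 14 of the 45 for basophil/mast-like, 1163 to 1852 and 33 to 40 for erythroid-like, 1929 to 2268 and 24 to 26 for monocyte-like, and 1707 to 2225 and 14 to 22 for neutrophil-like cells. The difference of the mitosis sum ran from -0.0435 to -0.0155 and that of the replication sum from -0.00675 to 0.0233 percentage points. Of the other values for counts and sums, 66 stayed within the limits set and 24 moved.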
